A study of Mus musculus with 6 samples.

Results

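The subject is a set of 4 mature miRNAs known from kidney tubules, in nephron progenitor cells of mouse embryos (E14.5) and newborns (P0, taken on the birth day). They are mmu-miR-192-5p, mmu-miR-194-5p, mmu-miR-215-5p and mmu-miR-204-5p, written below without the species prefix. The members were chosen by name from 1034 distinct mature miRNAs in the deposited table, and all 4 were found. Where a name had more than 1 genomic row, the row with the highest total was kept. Each stage had 3 samples of CD1 mice, each a pool of kidneys from 1 litter, with no genetic change or drug treatment named at either stage. Cells of the kidney cortex were released by a brief enzyme digestion and pulled down with beads against the integrin Itga8, so each sample is an enriched pool and not a single cell type. Total RNA was sequenced as single-end small RNA. The table holds miRNAs only, so the protein-coding markers of nephron progenitors were not checked here.

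A miRNA hairpin is cut into a duplex whose 5p and 3p arms can each become a mature miRNA, and in most hairpins one arm is kept and the other is largely lost. Bases 2 to 8 of the mature miRNA, the seed, do most of the pairing with target messages. miR-192, miR-194 and miR-215 come from a pair of duplicated clusters and are known for high levels in adult kidney cortex, liver and gut. miR-192 has been studied in transforming growth factor beta signalling and fibrosis of the kidney, and miR-192, miR-194 and miR-215 as targets of p53. miR-204 lies in the channel gene Trpm3 and is known from tubule epithelium and the retinal pigment epithelium. Nephron progenitors are the mesenchymal cells that turn into this tubule epithelium. The comparison asks whether miRNAs of the tubule differed between progenitor pools of the 2 stages, as signs of tubule differentiation.

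The 4 mature sequences (RefSeq, build GRCm38.p6, 5′ to 3′, the seed in capitals) are shown because they set which members share targets and which reads can be told apart.
miR-192-5p: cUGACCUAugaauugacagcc
miR-215-5p: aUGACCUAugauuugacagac
miR-194-5p: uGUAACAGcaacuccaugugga
miR-204-5p: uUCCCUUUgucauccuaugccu
miR-192-5p and miR-215-5p share their seed and differ at 3 of 21 positions, C1A, A12U and C20A (the base of miR-192-5p first, positions counted from 1 at the 5′ end). No other RefSeq mouse miRNA shares the seed of miR-194-5p. The seed of miR-204-5p is shared by miR-211-5p and miR-7670-3p, neither of which has a row in the table. miR-211-5p differs from miR-204-5p at 1 position, A17U.

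The coordinates of the deposited table equalled those of RefSeq on GRCm38 for each member. miR-192-5p (chr19:6264857-6264877, plus strand) and miR-194-5p (chr19:6264658-6264679, plus strand) come from the hairpins Mir192 and Mir194-2, which are 115 bases apart and overlap no other annotated gene of GENCODE M21. miR-215-5p (chr1:185313610-185313630, plus strand) lies in an exon of the antisense transcript 2010103J01Rik and in an intron of Iars2 on the opposite strand. A second copy of miR-194-5p, from Mir194-1 (chr1:185313325-185313346, plus strand), lies 195 bases before the Mir215 hairpin, in introns of the same genes. miR-204-5p (chr19:22750610-22750631, plus strand) lies in an intron of Trpm3 on the same strand.

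The libraries held 2649506 to 23691028 recovered reads at E14.5 and 21508833 to 34934526 at P0. Values are TPM, the reads of a miRNA per base of its length scaled so that each library sums to 1000000, so a TPM is a share of its library. P0 replicate 1 stood apart from its stage. Its log2(TPM + 1) values correlated on average at 0.948 with the E14.5 libraries and at 0.908 with P0 replicates 2 and 3, over the 670 tested miRNAs. Results that rest on it are given with and without it. Throughout, 3 values of a stage are listed in the order of replicates 1, 2 and 3, and a log2 change is P0 over E14.5 in a limma fit. Nothing in the labels gives a sequencing batch. In these bulk samples fewer cells of a type and less RNA per cell cannot be told apart.

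None of the 4 miRNAs was higher at P0 by the test on TPM. miR-204-5p fell about 3.83-fold in mean TPM, was called lower, and was the member whose stages did not overlap. In TPM 32.8% of all tested miRNAs were called lower, and for 46.4% every P0 value lay below every E14.5 value. On the median-of-ratios scale, described below, miR-204-5p was not called. Its call in TPM was lost when any of 4 of the 6 libraries was left out. miR-194-5p was 2.60-fold lower in mean TPM, which did not pass the threshold, with P0 replicate 1 at an embryonic level. Without that library its log2 change went from −1.95 to −2.91 and passed, in a fit that called 53.0% of the miRNAs tested lower. On the median-of-ratios scale with all libraries the log2 change of miR-194-5p was −0.67. miR-192-5p was the most abundant member in all 6 libraries, was not called in either direction, and stood higher against both miR-194-5p and miR-204-5p in every P0 library than in any E14.5 library. Neither ratio passed the threshold (exact permutation p = 0.1, the smallest possible, and adjusted p = 0.175 for each). In TPM 67.6% of tested miRNAs had a lower log2 change than miR-192-5p. miR-215-5p was close to the limit of detection at both stages.

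miR-192-5p, made from the Mir192 hairpin, had 694, 364 and 364 TPM in the embryonic libraries and 637, 178 and 209 TPM in the newborn ones. P0 replicate 1 lay among the E14.5 libraries, the other P0 libraries lay below them, and the stages overlapped. The means were 474 ± 191 TPM in the 3 embryonic libraries and 341 ± 256 TPM in the 3 newborn ones (± SD, n = 3). Its log2 change was −0.65 (SE 0.61, limma adjusted p = 0.394). Over all 670 tested miRNAs the median was −1.20, so miR-192-5p lay 0.54 above that median. With no minimum level, over all 1034 miRNAs, the median was −0.64 and 49.6% had a lower log2 change, so miR-192-5p was then at the median. Without P0 replicate 1 its log2 change was −1.22 and passed the threshold (limma adjusted p = 0.0133), in a fit that called 61.0% of the miRNAs tested and 53.0% lower. With median-of-ratios scaling, which sets libraries level on the middle of their miRNA ratios, its direction turned to 0.63 (SE 0.50, limma adjusted p = 0.391). So the sign of its change depended on the scaling. By rank in the library it stood at places 108, 135 and 151 at E14.5 and 89, 121 and 115 at P0.

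miR-194-5p, its neighbour in the chromosome 19 cluster, stood at 452, 172 and 256 TPM at E14.5. At P0 it stood at 267, 40.1 and 31.0 TPM. P0 replicate 1 again lay among the E14.5 libraries and the other P0 libraries lay far below, so the stages overlapped. The means were 293 ± 143 TPM in the 3 embryonic libraries and 113 ± 134 TPM in the 3 newborn ones (± SD, n = 3). The log2 change was −1.95 (SE 0.78, limma adjusted p = 0.0676), short of the threshold of 0.05. Without P0 replicate 1, with stage as the only term, the log2 change was −2.91 (limma adjusted p = 0.000202). That fit called 53.0% of the miRNAs tested lower. On the median-of-ratios scale it was −0.67 (SE 0.68, limma adjusted p = 0.495), and −1.47 without P0 replicate 1 (limma adjusted p = 0.0255), where 26.6% of all tested miRNAs were called lower. The lower level at P0 thus rested on P0 replicates 2 and 3.

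The identical mature sequence of the Mir194-1 copy has its own row on chromosome 1. That row held 27, 136 and 34 embryonic reads, against 1193, 4060 and 1308 on the chromosome 19 row. At P0 it held 371, 25 and 6 reads, against 9294, 890 and 667. The chromosome 1 row therefore had between 0.892% and 3.84% of the reads of miR-194-5p in every library, and the summed rows gave the same direction. The hairpins are printed because they show what could tell the copies apart, with the annotated mature arms in capitals (RefSeq, GRCm38.p6, plus strand).
Mir194-1: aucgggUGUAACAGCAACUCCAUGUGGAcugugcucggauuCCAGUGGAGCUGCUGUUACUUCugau
Mir194-2: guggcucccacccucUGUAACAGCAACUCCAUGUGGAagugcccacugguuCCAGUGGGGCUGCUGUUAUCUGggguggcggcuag
The 5p arms are the same, so reads of miR-194-5p differ between the copies only in bases beyond the mature ends. How the authors' counting divided such reads is not given in the sources used here, and the split between the copies is uncertain. The 3p arms differ, and Mir194-2 is the copy whose 3p arm has a row.

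miR-215-5p, the seed partner of miR-192-5p, was covered by 0, 29 and 1 reads at E14.5. At P0 it was covered by 29, 2 and 13 reads. In TPM these were 0, 1.29 and 0.206, and 0.876, 0.0945 and 0.635. The count of 0 in E14.5 replicate 1, a shallow library, allows up to 1.19 TPM, which is above 4 of the other 5 values. The means were 0.499 ± 0.694 TPM in the 3 embryonic libraries and 0.535 ± 0.400 TPM in the 3 newborn ones (± SD, n = 3), and the stages overlapped. Its mean over all libraries was 0.517 TPM, under the minimum of 1 TPM for the test. In a fit with no such minimum its log2 change was 0.09 (SE 0.41, limma adjusted p = 0.877). No difference between the stages was detectable at this depth. In the libraries with at least 13 reads of miR-215-5p, miR-192-5p was 282, 727 and 329 times as abundant in TPM (E14.5 replicate 2, P0 replicates 1 and 3). Of the reads of this pair, nearly all were thus miR-192-5p.

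miR-204-5p, the Trpm3 miRNA, reached 379, 228 and 251 TPM before birth and 104, 45.8 and 74.5 TPM at birth. All P0 libraries lay below all E14.5 libraries, and P0 replicate 1 was the highest of its stage. The means were 286 ± 80.9 TPM in the 3 embryonic libraries and 74.7 ± 29.0 TPM in the 3 newborn ones (± SD, n = 3). The log2 change was −1.96 (SE 0.56, limma adjusted p = 0.0193), so miR-204-5p was called lower. In the same fit 32.8% of all tested miRNAs were called lower, 1.34% were called higher, and for 46.4% every P0 value lay below every E14.5 value. The log2 change of miR-204-5p differed from the median of all tested miRNAs by −0.77, and 26.1% of tested miRNAs had a lower log2 change. With no minimum level it differed from the median by −1.32 and that share was 16.9%. On the median-of-ratios scale, where 5.22% of miRNAs were called lower, its log2 change was −0.69 (SE 0.46, limma adjusted p = 0.307) and was not called. Its scaled levels were 250, 155 and 147 at E14.5 and 118, 86.8 and 131 at P0, still without overlap, as for 19.6% of tested miRNAs in that direction. The call in TPM was lost without E14.5 replicate 1 (log2 change −1.74, limma adjusted p = 0.0909), E14.5 replicate 3 (−2.04, limma adjusted p = 0.0798), P0 replicate 2 (−1.65, limma adjusted p = 0.116) or P0 replicate 3 (limma adjusted p = 0.0555). Without P0 replicate 1 it was −2.24 (limma adjusted p = 0.000439).

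**Figure D1:**
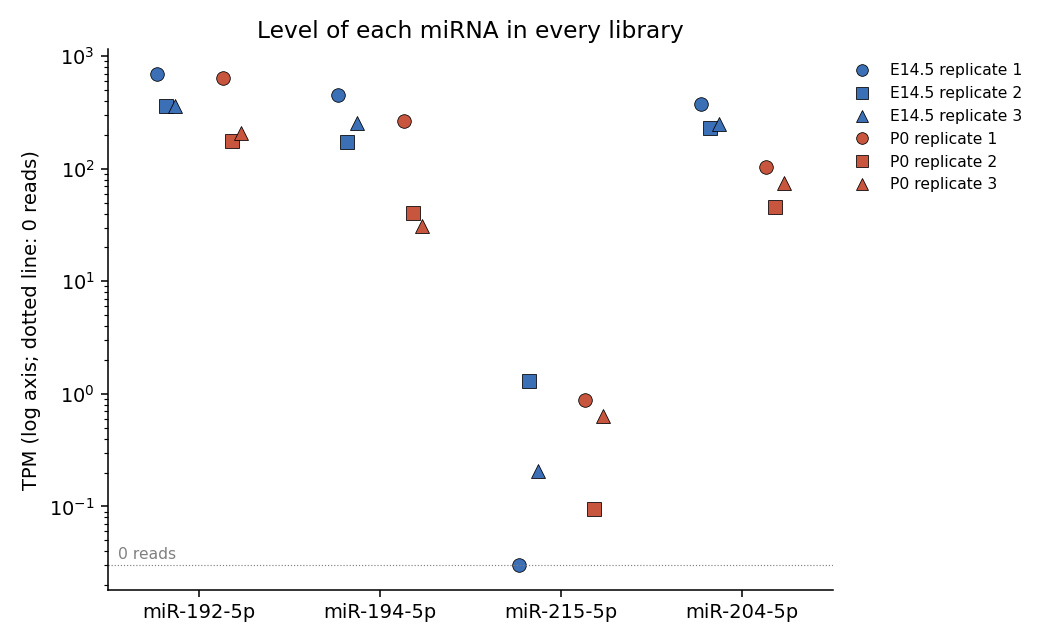
TPM of the 4 miRNAs in each library on a log axis, blue for E14.5 and red for P0, with a symbol for each replicate number and the dotted line marking 0 reads. Only miR-204-5p has all P0 points below all E14.5 points; for miR-192-5p (637 TPM) and miR-194-5p (267 TPM) P0 replicate 1 lies among the E14.5 libraries.

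The order of the levels was the same at its ends in every library. miR-192-5p was the highest and miR-215-5p the lowest in all 6. miR-194-5p and miR-204-5p changed places, with miR-194-5p above miR-204-5p in E14.5 replicates 1 and 3 and P0 replicate 1 and below it in the other libraries, so these neighbours did not differ beyond their spread. The 4 members together made up 0.153%, 0.0766% and 0.0872% of the TPM sum at E14.5. The P0 shares were 0.101%, 0.0264% and 0.0315%. All 4 together were thus a small part of each library.

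In the authors' deposited table, whose fold changes follow the median-of-ratios scale, none of the 4 passed an adjusted p of 0.05, a threshold that 10.4% of the miRNAs passed. With its sign read as P0 over E14.5, the authors' deposited table gave log2 changes of 0.50 (SE 0.65) for miR-192-5p, −0.79 (SE 0.76) for miR-194-5p, 1.07 (SE 2.78) for miR-215-5p and −0.60 (SE 0.62) for miR-204-5p.

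**Figure D2:**
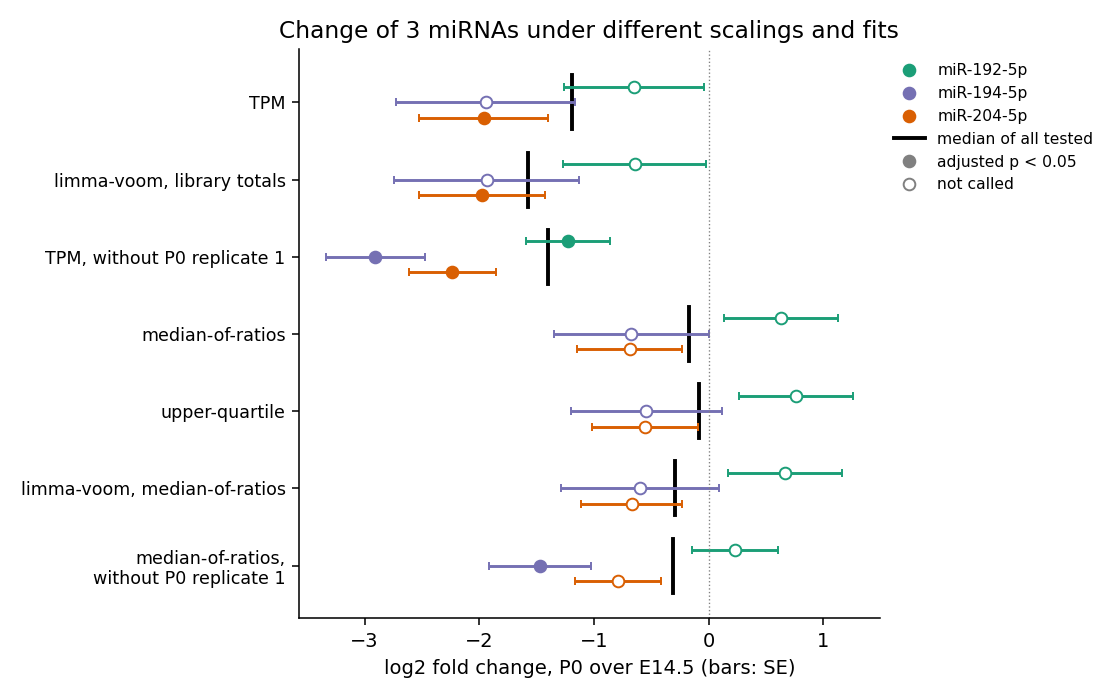
Log2 change (P0 over E14.5, x axis, bars are SE) of miR-192-5p, miR-194-5p and miR-204-5p under each scaling or fit on the y axis, filled where the adjusted p is under 0.05, with a black line at the median of all tested miRNAs. miR-192-5p lies right of that line in the 7 fits shown, at −0.65 in TPM and 0.63 with median-of-ratios scaling, while miR-194-5p and miR-204-5p lie left of it.

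A ratio of TPM within a library does not depend on how libraries are scaled against each other. For 4 ratios between members and 3 between the arms of a hairpin, the log2 ratio of TPM + 1 was compared between the stages by an exact two-sided permutation test, in which 3 libraries against 3 cannot go below p = 0.1, and p-values were adjusted over the 7. The added 1 TPM sets part of a ratio where a miRNA is near or below that level, as miR-215-5p, miR-192-3p and miR-204-3p were. miR-192-5p and miR-194-5p lie in the same cluster and may share a primary transcript. Their TPM ratio, miR-192-5p over miR-194-5p, was 1.54, 2.11 and 1.42 in embryos. In newborns it was 2.38, 4.44 and 6.73. Every P0 library, replicate 1 included, lay above every E14.5 library. The log2 ratio was 0.73 ± 0.30 in the 3 embryonic libraries and 2.03 ± 0.74 in the 3 newborn ones (± SD, n = 3), a difference of 1.29 (exact permutation p = 0.1, adjusted p = 0.175). Without P0 replicate 1 the difference was 1.68.

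miR-204-5p was also lower against miR-192-5p. The TPM ratio, miR-204-5p over miR-192-5p, was 0.545, 0.627 and 0.689 in embryos. In newborns it was 0.163, 0.258 and 0.357. The stages did not overlap, and P0 replicate 1 had the lowest ratio of all libraries. The log2 ratio was −0.69 ± 0.17 in the 3 embryonic libraries and −2.0 ± 0.57 in the 3 newborn ones (± SD, n = 3), a difference of −1.31 (exact permutation p = 0.1, adjusted p = 0.175), and −1.01 without P0 replicate 1. The ratios to miR-215-5p overlapped between the stages, for miR-192-5p with a difference of −0.75 (exact permutation p = 0.5, adjusted p = 0.5) and for miR-194-5p with a difference of −2.04 (exact permutation p = 0.2, adjusted p = 0.28). They rest on 0 to 29 reads of miR-215-5p, and with 0.1 TPM added they differed by −1.23 and −2.54.

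**Figure D3:**
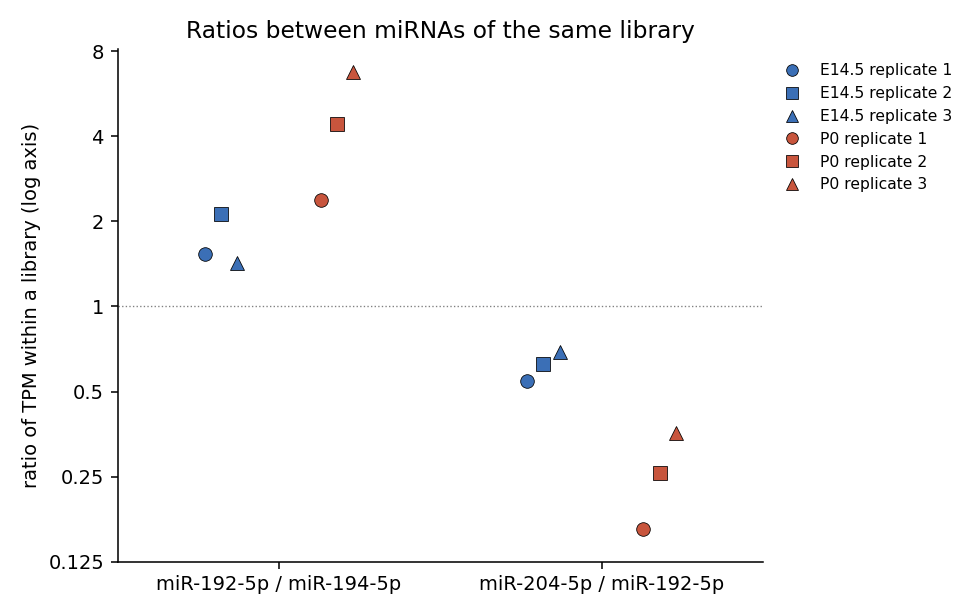
TPM ratios within each library on a log axis, blue for E14.5 and red for P0, with a symbol for each replicate number. For miR-192-5p over miR-194-5p the P0 libraries (2.38 to 6.73) lie above the E14.5 libraries (1.42 to 2.11), and for miR-204-5p over miR-192-5p they lie below them (0.163 to 0.357 against 0.545 to 0.689).

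The other arms of the same hairpins were examined next. Of 5 listed arms, miR-192-3p, miR-194-2-3p and miR-204-3p had rows. miR-194-1-3p and miR-215-3p had none and were not analysed here. The 3 arms with rows are shown because their seeds (in capitals) differ from those of the 5p arms, so a shift between arms changes which targets could be paired.
miR-192-3p: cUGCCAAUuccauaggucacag
miR-194-2-3p: cCAGUGGGgcugcuguuaucug
miR-204-3p: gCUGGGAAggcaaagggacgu
None of the 3 was called on either scale with all libraries in the fit, against 34.2% and 10.9% of all tested miRNAs. Their median log2 change was −0.78 in TPM, beside −1.20 over all tested. This order depended on the fit. With 0.1 TPM added the medians were −1.58 and −1.51, and in limma-voom on library totals −1.71 and −1.57.

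In the Mir194-2 hairpin the 3p share was highest in P0 replicates 2 and 3. miR-194-2-3p had 4.92, 5.60 and 5.87 TPM at E14.5. Its P0 levels were 1.90, 7.65 and 8.56 TPM. It was above the E14.5 libraries in P0 replicates 2 and 3, where its 5p partner was lowest, and below them in P0 replicate 1. The 3p arm took 1.08% (95% Wilson interval 0.631 to 1.84), 3.15% (2.66 to 3.72) and 2.24% (1.58 to 3.18) of the reads of both arms at E14.5. It took 0.705% (0.555 to 0.896), 16.0% (14.0 to 18.4) and 21.6% (19.0 to 24.5) at P0. In reads, this was 170 and 184 of miR-194-2-3p beside 890 and 667 of miR-194-5p in P0 replicates 2 and 3, against 13, 132 and 30 beside 1193, 4060 and 1308 at E14.5. The intervals cover counting error only.

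Because P0 replicate 1 went the other way, the stages overlapped in this arm ratio. The log2 ratio of 5p over 3p was 5.40 ± 0.79 in the 3 embryonic libraries and 3.51 ± 2.63 in the 3 newborn ones (± SD, n = 3), a difference of −1.89 (exact permutation p = 0.4, adjusted p = 0.467), and −3.40 without P0 replicate 1. miR-194-2-3p itself had a log2 value of −0.05 for P0 over E14.5 in TPM (SE 0.61, limma adjusted p = 0.955). Scaled by median-of-ratios it was at 1.04 (SE 0.70, limma adjusted p = 0.312). Without P0 replicate 1 it was 0.50 in TPM (limma adjusted p = 0.398) and, scaled, rose by 1.77 (limma adjusted p = 0.0133), where 21.6% of all tested miRNAs were called higher. The GC content of the arms differs, with 45.5% for miR-194-5p and 59.1% for miR-194-2-3p.

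In the Mir192 hairpin, miR-192-3p was covered by 12, 61 and 12 embryonic reads. In newborns it was covered by 87, 0 and 0 reads. It made up 0.682% (95% Wilson interval 0.391 to 1.19), 0.740% (0.577 to 0.950) and 0.672% (0.385 to 1.17) of both arms at E14.5 and 0.411% (0.333 to 0.507) in P0 replicate 1. The 0 of 3760 and 0 of 4277 reads in P0 replicates 2 and 3 allow shares of up to 0.0798% and 0.0701% by the floor of 3 reads, with Wilson upper limits of 0.102% and 0.0897%. As point values the 3p shares were lower in every P0 library than in every E14.5 library. The interval of P0 replicate 1 overlapped those of E14.5 replicates 1 and 3, so counting error does not separate it from them. The log2 ratio of 5p over 3p was 6.97, 6.67 and 6.77 at E14.5 and 7.51 in P0 replicate 1. In P0 replicates 2 and 3, with no 3p reads, the values of 7.48 and 7.71 are set by the added 1 TPM. The stages did not overlap (exact permutation p = 0.1, adjusted p = 0.175), but the size of the difference was 0.76 with 1 TPM added and 2.75 with 0.1 TPM. miR-192-3p had a log2 change of −1.42 in TPM (SE 0.61, limma adjusted p = 0.0847) and −4.38 in limma-voom on library totals (SE 1.85, limma-voom adjusted p = 0.0921). Without P0 replicate 1 it was −2.02 (limma adjusted p = 0.00695), where 53.0% of tested miRNAs were called lower. As the remaining P0 libraries had 0 reads, the size of that value is set by the added 1 TPM. In P0 replicates 2 and 3 the 3p share was thus lower than at E14.5 for Mir192 and higher for Mir194-2. In P0 replicate 1 the shares of both hairpins lay below the E14.5 values, with intervals that overlapped embryonic ones. The hairpins were not tested against each other.

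For Mir204 the arm shares overlapped. miR-204-3p had 9, 39 and 5 reads at E14.5 and 28, 2 and 30 reads at P0. These were 0.892% (95% Wilson interval 0.470 to 1.69), 0.719% (0.527 to 0.982) and 0.388% (0.166 to 0.906) of both arms at E14.5. They were 0.770% (0.533 to 1.11), 0.196% (0.0538 to 0.712) and 1.84% (1.29 to 2.61) at P0. P0 replicate 3 was the highest and P0 replicate 2 the lowest of all libraries. The log2 ratio of 5p over 3p differed by −1.18 (exact permutation p = 0.1, adjusted p = 0.175) with an added 1 TPM, which was close to the level of miR-204-3p itself. With an added 0.1 TPM the difference was −0.40 and the stages overlapped.

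**Figure D4:**
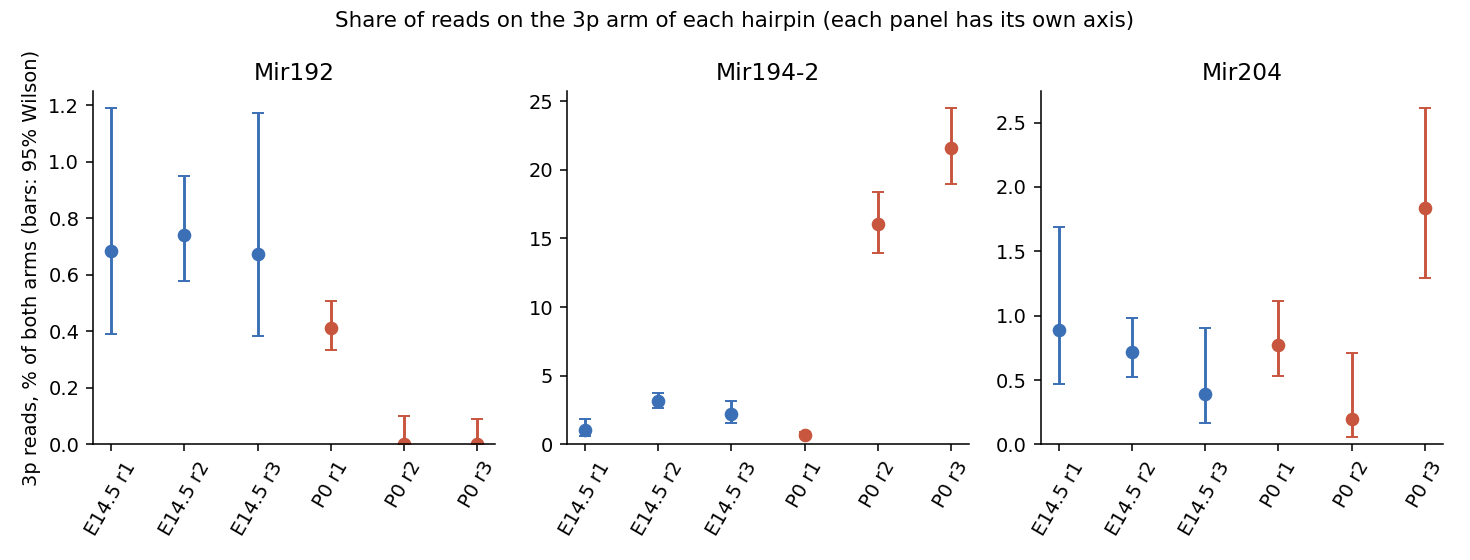
Share of reads on the 3p arm, as a percentage of the reads of both arms, for the hairpins Mir192, Mir194-2 and Mir204 in each library (r is the replicate number), with bars for the 95% Wilson interval and a separate axis from 0 in each panel. Mir194-2 reaches 16.0% and 21.6% in P0 replicates 2 and 3 against 0.705% to 3.15% in the other libraries, while Mir192 is at 0 in those same P0 libraries.

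The GC content of all tested miRNAs moved with the change between stages. It was known for 582 of the 670 (86.9%). Across these miRNAs, which are not independent replicates and share their libraries, the Spearman correlation of GC content and log2 change was 0.38 in TPM and 0.35 when scaled by median-of-ratios. Split into 4 groups by GC content, from the lowest to the highest, they had median log2 changes of −1.87, −1.39, −0.94 and −0.61 in TPM. miR-192-5p (47.6% GC), miR-194-5p (45.5%) and miR-204-5p (45.5%) all fall in the group with a median of −1.39. Their own changes were −0.65, −1.95 and −1.96, so members of like GC content lay on both sides of that median. miR-192-3p (50.0%) falls in the group with a median of −0.94, and miR-194-2-3p (59.1%) and miR-204-3p (61.9%) in the one with −0.61. The part of GC content in these results was not tested.

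A list of 12 miRNAs known from kidney epithelium was set beside the members. It holds the miR-200 family, which is expressed in ureteric and other epithelia and represses the Zeb factors, the miR-30 family, which is abundant in nephron cells, and the epithelial miRNAs miR-203-3p and miR-205-5p. In TPM, 8 of the 12 were called lower and 0 higher, where 32.8% and 1.34% of all tested miRNAs were, with a median log2 change of −2.93 beside −1.20 over all tested. The 8 were miR-200a-3p, miR-200b-3p, miR-200c-3p, miR-141-3p, miR-429-3p, miR-30b-5p, miR-30c-5p and miR-203-3p, with log2 changes from −4.55 (miR-200b-3p) to −1.84 (miR-203-3p) (limma, adjusted p under the threshold). After median-of-ratios scaling, where 5.22% of all tested miRNAs were called lower, 3 of the 12 fell (miR-200a-3p, −2.46; miR-200b-3p, −3.27; miR-429-3p, −3.13) and miR-30d-5p rose by 1.84 (limma, same threshold), where 5.67% of all tested miRNAs were called higher. The median was then −1.64 beside −0.17. In TPM, miR-30d-5p was at 0.56 (limma adjusted p = 0.340). Without P0 replicate 1, 11 of the 12 were called lower in TPM (53.0% of all tested). On the median-of-ratios scale 5 were then lower (26.6% of all tested) and 1 higher (21.6%). On that scale limma called 0 of the 12 without E14.5 replicate 1, E14.5 replicate 3, P0 replicate 2 or P0 replicate 3 (0%, 0%, 0% and 0.297% of all tested) and 2 without E14.5 replicate 2 (1.06%). In these 5 fits 140 to 198 of all tested miRNAs had an unadjusted p under 0.05. In TPM the count was 4 without E14.5 replicate 1 (16.6% of all tested called lower), 3 without E14.5 replicate 3 (10.7%) and 5 without P0 replicate 2 (16.6%). miR-30e-5p had the highest mean level of the list and was not called, at −1.22 in TPM and 0.07 when scaled. In TPM the values of all 3 tested tubule miRNAs lay above those of the 5 listed miR-200 family members, and that of miR-192-5p above 11 of the 12. These differences between miRNAs were not tested.

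**Figure D5:**
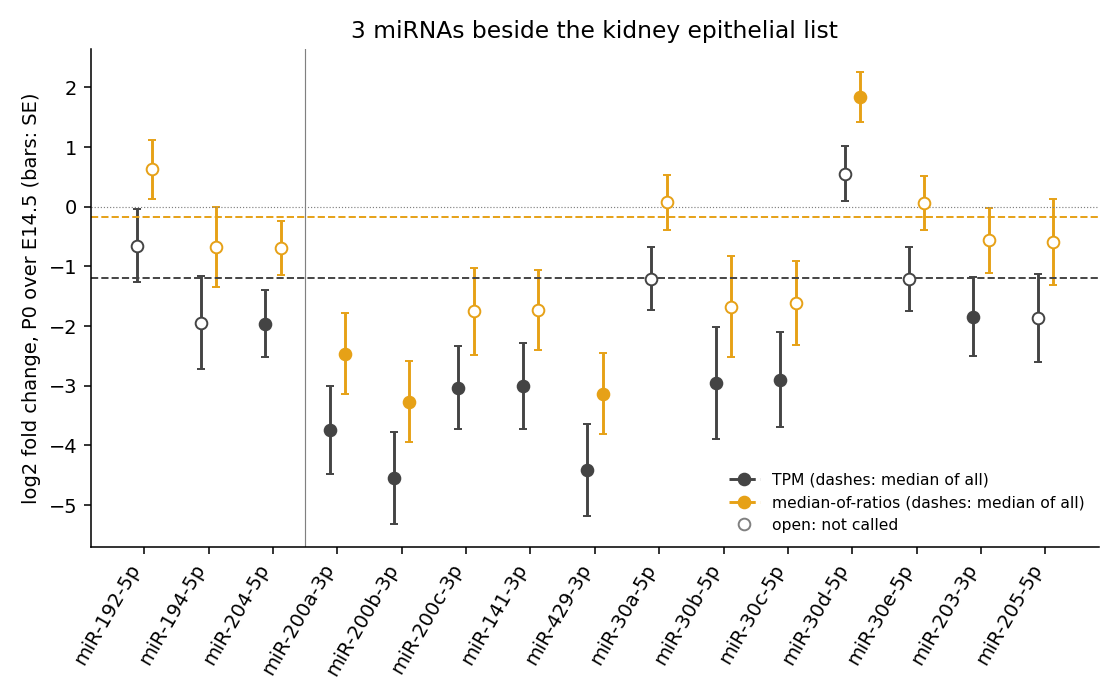
Log2 change (P0 over E14.5, y axis, bars are SE) of miR-192-5p, miR-194-5p and miR-204-5p, left of the vertical line, and of the 12 listed kidney epithelial miRNAs, in TPM (dark grey) and with median-of-ratios scaling (yellow), with filled points where the adjusted p is under 0.05 and dashed lines at the medians of all tested miRNAs. miR-204-5p (−1.96 in TPM) lies between the TPM median and the miR-200 family, and miR-30d-5p is the listed miRNA that was called higher after scaling.

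Markers of other cell types were summed per library. miR-122-5p, the liver miRNA, is of interest because liver also makes miR-192 and miR-194. It had 62.8, 6.79 and 5.48 TPM at E14.5. At P0 it had 3.68, 0.360 and 28.7 TPM. It was highest in E14.5 replicate 1, which also had the highest miR-192-5p, miR-194-5p and miR-204-5p. Without that library the log2 change of miR-192-5p in TPM was −0.34 (limma adjusted p = 0.743). P0 replicate 1, the P0 library with the highest miR-192-5p, had 3.68 TPM of miR-122-5p. The gut and pancreas list (3 of 4 miRNAs present, miR-217-5p at 0 in 3 libraries) summed to 21.4 to 65.8 TPM at E14.5 and 2.00 to 13.8 TPM at P0. The endothelial list (2 of 2) summed to 26608 to 44921 TPM and 5634 to 8158 TPM, and the stromal list (7 of 7) to 124080 to 148147 TPM and 56842 to 73328 TPM. The stromal sum holds both miR-199a-3p and miR-199b-3p and may count some reads more than once. The row of miR-199a-3p that was not kept and the row of miR-199b-3p had nearly equal authors' mean normalised signals, 430404 and 428424. The erythroid list (4 of 4) summed to 242 to 417 TPM and 127 to 189 TPM, and the leukocyte list (5 of 5) to 797 to 1540 TPM and 507 to 751 TPM. The ureteric epithelial list (5 of 5) summed to 4122 to 23183 TPM at E14.5 and 500.2 to 1542 TPM at P0. Its members are the miR-200 family members of the kidney epithelial list above, so it is not a separate result. In TPM each of these sums was thus lower in all P0 libraries than in all E14.5 libraries, apart from miR-122-5p, which overlapped. Of single tested miRNAs, 46.4% were likewise lower in all P0 libraries in TPM, and 19.6% on the median-of-ratios scale. On that scale the endothelial and ureteric sums were still lower in all P0 libraries, and the other 5 overlapped between the stages. Not every member followed its sum. The leukocyte miR-223-3p had 156, 107 and 147 TPM at E14.5 and 249, 141 and 147 TPM at P0, and the erythroid miR-486a-5p had 33.7, 61.9 and 73.0 TPM and then 37.4, 138 and 146 TPM. Both overlapped between the stages in TPM and were named after their values were seen. On the median-of-ratios scale miR-223-3p was called higher (log2 change 1.64, limma adjusted p = 0.0401). The part of other cells in the levels of the 4 miRNAs was not tested.

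The miRNAs whose pattern over the 6 libraries was most like each member are given as a description, by Pearson's r of log2(TPM + 1) among 431 or 432 miRNAs averaging 10 TPM or more. All share the same 6 libraries. For miR-192-5p they were miR-101b-3p (r = 0.957), miR-24-3p (0.953), miR-30d-3p (0.938), miR-340-5p (0.936) and miR-34a-5p (0.934). For miR-194-5p they were miR-30e-5p (0.996), let-7f-2-3p (0.992), miR-15a-5p (0.991), miR-340-5p (0.989) and miR-322-5p (0.989). For miR-204-5p they were miR-20a-3p (0.984), miR-19b-1-5p (0.984), miR-429-3p (0.982), miR-582-3p (0.982) and miR-200b-3p (0.978). For miR-215-5p, near its detection limit, they were miR-99b-3p (0.888), miR-676-5p (0.866), miR-27a-5p (0.837), miR-383-5p (0.828) and miR-196a-1-3p (0.811). On median-of-ratios scaled values 0, 3, 2 and 1 of the 5 stayed among the nearest for miR-192-5p, miR-194-5p, miR-204-5p and miR-215-5p.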

How the data were processed

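Small RNA of 6 mouse nephron progenitor samples (3 per stage) was analysed from 1 table of 1104 rows, with per-sample TPM deposited by the authors. The deposited table also held the authors' baseMean (a normalised signal), log2 fold change with its standard error, test statistic (a score), p-value and adjusted p-value. featureCounts and DESeq2 1.26.0 on mm10 are named in the submitters' processing notes. Trimming, alignment and use of molecular tags are not given in the sources used here. Deposited TPM times length (end minus start) gave whole reads in 100% of values (relative tolerance 1e-06). Reads of multi-copy names may be present in several rows, and the highest row was kept. A floor of 3 reads is used.

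Because the deposited unit is TPM, stages were compared by limma 3.58.1 (run in R 4.3.3) on log2(TPM + 1) with a variance trend. miRNAs averaging 1 TPM or more were tested, with stage as the only term and Benjamini-Hochberg adjustment over all of them. Adjusted p-values under 0.05 were called. Fold changes on this scale are understated for low miRNAs. Ratios were tested with SciPy 1.17.1. A limma fit was also run on simulated data, and its outcome is not given here. No result above rests on that run. The members, lists and tests were chosen with earlier results of these data known. Named were the members, their other arms and seed relatives, the called miRNAs and the most abundant one of the epithelial list, and the 5 miRNAs most like each member. Whether the litters of a stage were handled on separate days is not given, so p-values measure the spread between these pools.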

Additional observations from a re-analysis of the deposited data

How the results depend on the processing

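The direction of miR-194-5p and miR-204-5p was lower at P0 under all alternatives run, and the directions of the 7 ratios held under a pseudocount of 0.1, summed rows and each library left out. miR-192-5p, with −0.65 in TPM, turned to 0.63 with median-of-ratios scaling, 0.76 with upper-quartile scaling and 0.66 in limma-voom on those factors. miR-204-5p was no longer called in those fits, at −0.69, −0.56 and −0.67. The call counts over all miRNAs were then 73, 63 and 28, against 229 in TPM, and those of the epithelial list 4, 3 and 3, against 8. The other alternatives (limma-voom with library totals, no filter, 10 TPM, pseudocount 0.1, summed rows) changed none of the members' calls. Leaving out each library in turn gave −1.22 to −0.31 for miR-192-5p, −2.91 to −1.37 for miR-194-5p and −2.24 to −1.65 for miR-204-5p, with 72 to 420 miRNAs called, 3 to 11 of the epithelial list and 0 to 1 of the other arms. With median-of-ratios scaling as well, chosen after seeing the data apart from the fit without P0 replicate 1, leaving out E14.5 replicates 1, 2, 3 and P0 replicates 1, 2, 3 gave 0.94, 0.53, 0.38, 0.23, 0.90 and 0.79 for miR-192-5p and −0.47, −0.77, −0.86, −0.79, −0.46 and −0.79 for miR-204-5p. miR-194-5p was at −1.47 to −0.17, and 0 to 332 miRNAs, 0 to 6 of the epithelial list and 0 to 2 of the other arms were called. In the fits with 0 calls, 140 to 150 miRNAs had an unadjusted limma p under 0.05. The causes were not tested.

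Replicate numbers were not taken to pair litters. Deviations of same-numbered samples correlated at 0.193, 0.183 and 0.042, and 5 of 6 libraries correlated best with their own number. A fit with this number as a replicate block called 247 miRNAs, and miR-194-5p passed the threshold (−1.95, limma adjusted p = 0.0280). With the replicate block and median-of-ratios scaling, 67 miRNAs were called and 4 of the epithelial list. There miR-192-5p was at 0.63 and miR-204-5p at −0.69, and miR-194-5p was not called (−0.67, limma adjusted p = 0.325). Depth limits miR-215-5p and the 3p arms, most of all in E14.5 replicates 1 and 3.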
